A study of Arabidopsis thaliana with 4 samples.

Results

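The 100 genes described here were higher on 2 arrays of an Arabidopsis thaliana seedling series than on the other 2, across the genotypes and not between them. They were read higher on wild type replicate 1 and knockout replicate 2 (called the high pair here) than on wild type replicate 2 and knockout replicate 1 (the low pair). They were chosen among 22746 probe sets, each a group of short probes that reads 1 transcript. A probe set was eligible if it named exactly 1 gene and had a mean signal of 20 or more over the 4 arrays, which 8682 did. Of these, 1561 (18.0%) read higher on both arrays of the high pair than on both arrays of the low pair, and 2150 (24.8%) had the opposite order. The 1561 were ranked by the difference of the pair means in log2(signal + 16), and the first 100 are the members. The members were thus chosen by their signals on these 4 arrays, so their pair differences are a description with no test, and the 18.0% is the share of eligible probe sets that the same order leaves.

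The RNA was total RNA from whole seedlings at developmental stage 1.02, biotin labelled and read on ATH1 arrays, which carry probes for most annotated genes of this plant. Col-0 wild type seedlings were read on 2 arrays, and seedlings of the same background with CDB1 completely knocked out on the other 2. Both genotypes grew on 1/2 MS10 medium under 16 h of daily light, with the temperature held at 20 °C and humidity at 80%. The labels give neither the hour of harvest nor the origin of the replicates, which may share a culture, and do not tie the replicate numbers to a day. No probe set is tied to the name CDB1 in the annotation used here, so the knockout itself was not checked. Values are MAS5 signals in arbitrary units, and array medians over the non-control probe sets ran from 47.9 to 50.6.

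Several states of a seedling are known to move many transcripts together. The circadian clock and light set the daily course of photosynthesis and growth genes, carbon supply sets starvation genes, and the share of root, shoot and dividing cells sets tissue markers. Plastid genes form a separate layer: they are read from the plastid's own genome by a bacterial-type and a phage-type RNA polymerase, mostly as long shared transcripts that are then cut. In RNA of whole seedlings, fewer cells of a type and less RNA per cell cannot be told apart.

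The members were of medium brightness and differed moderately. Their mean signals ran from 20.4 to 973, with a median of 68.9, against a median of 76.8 over all eligible probe sets. Median signals of the members were 89.1 on wild type replicate 1 and 81.8 on knockout replicate 2, and 51.1 and 51.6 on wild type replicate 2 and knockout replicate 1. The pair difference had a median of 0.55 and ran from 0.47 to 1.51 on the log2 scale. On that scale, which adds a constant to each signal, 41 members differed 1.5-fold or more and 3 members 2-fold or more. Folds of the signals alone are larger in every member, so these counts are not counts of signal folds. With a constant of 1 the median pair difference was 0.71. On 15 members at least 1 array read below 20, and on 5 both arrays of the low pair did, which leaves the size of those differences uncertain. Those 5 reached the mean signal of 20 only through the high pair. Of the 8682 eligible probe sets, 696 had at least 1 array below 20, and 24 had both arrays of the low pair below 20.

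Wild type replicate 1 was the brightest array for 76 members and knockout replicate 2 for the other 24. The dimmest array was knockout replicate 1 for 57 members and wild type replicate 2 for 43. Of the 8682 eligible probe sets, 4380 read higher on wild type replicate 1 than on knockout replicate 2. On 4799 of them wild type replicate 2 read above knockout replicate 1, so nothing is read from the split of 57 and 43. Within the wild type, replicate 1 exceeded replicate 2 by a median of 0.67 on the log2 scale. Within the knockout, replicate 2 exceeded replicate 1 by a median of 0.51. At the edge of the list, AT5G12110 and AT4G32920 at ranks 99 and 100 had pair differences of 0.47 and 0.47. UGT71C1 and AT5G42280, at ranks 101 and 102 and so outside the list, stood at 0.47 and 0.47 as well, so the end of the list marks no gap.

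**Figure D1:**
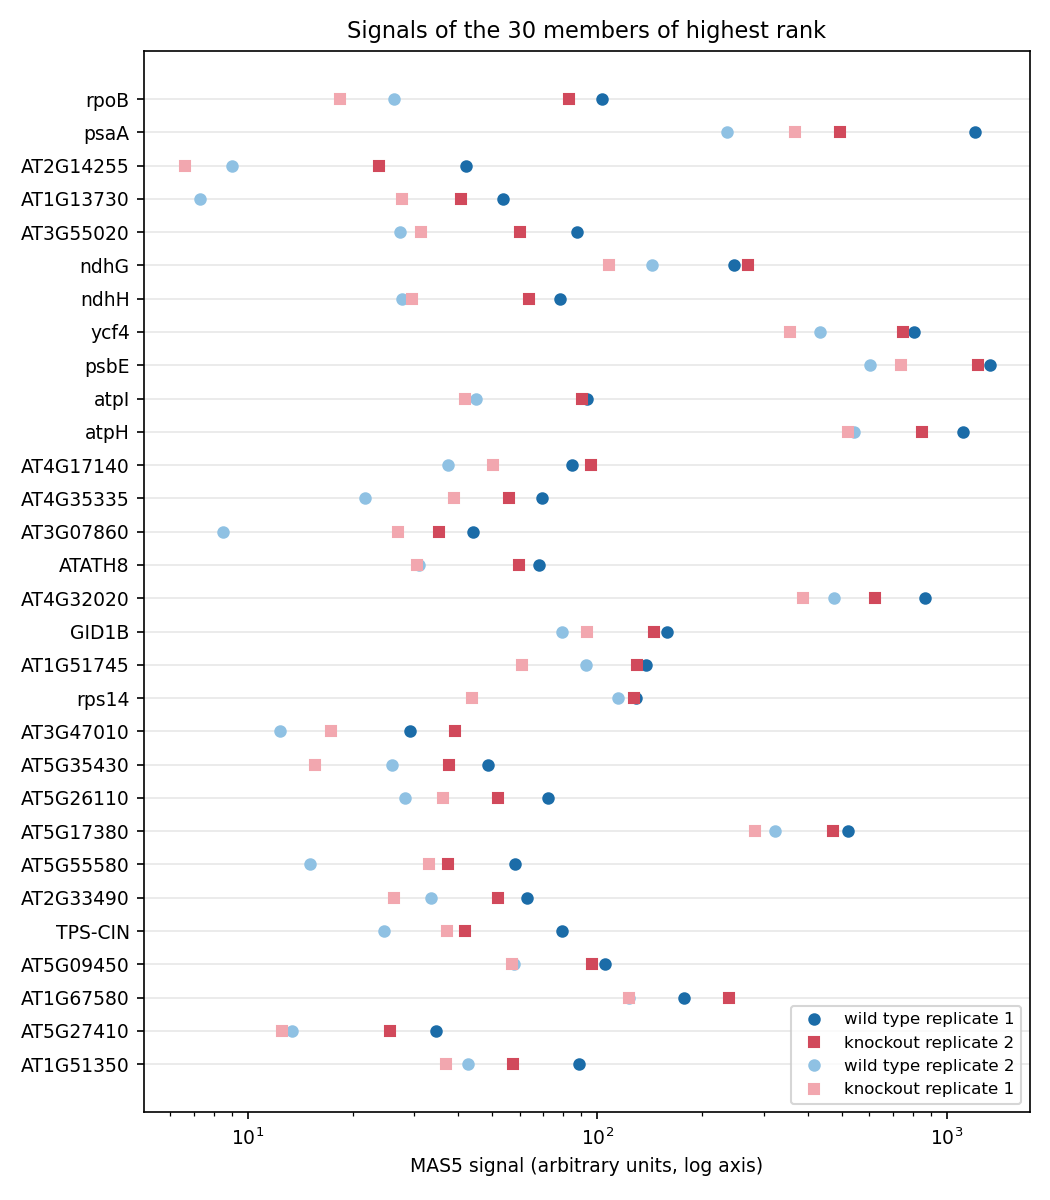
MAS5 signals, on a log axis, of the 30 members of highest rank on each of the 4 arrays, with circles for wild type and squares for knockout. In every row the 2 dark symbols (high pair) lie to the right of the 2 pale ones (low pair), as the rule requires, and rpoB has the widest gap.

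Of the 100 members, 10 are encoded in the plastid, against 69 among the 8682 eligible probe sets, and they hold 8 of the first 11 ranks. They belong to different complexes. The gene of highest rank was rpoB, the beta subunit of the bacterial-type plastid RNA polymerase, at 104 and 83.2 on the high pair (wild type replicate 1 first, here and below) and 26.2 and 18.4 on the low pair (wild type replicate 2 first). Its pair difference of 1.51 is 2.86-fold on the log2(signal + 16) scale, and knockout replicate 1 read below 20. Next came psaA, a reaction centre protein of photosystem I, at 1208 and 496 against 236 and 367. Here the arrays of the high pair were far apart, and wild type replicate 1 stood well above the other 3. The pair difference of psaA was 1.35, and 0.72 without wild type replicate 1.

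The 2 members that encode parts of the plastid NDH complex, which carries cyclic electron flow, had nearly equal pair differences. Of the 10 eligible ndh genes, 4 had the order of the members and 1 the opposite, with a median of 0.08. The ndhG probe set read 246 and 270 on the high pair and 144 and 108 on the low pair, a difference of 0.96. For ndhH the signals were 78.4 and 63.7 against 27.7 and 29.5, also a difference of 0.96. The assembly factor of photosystem I, ycf4, was at 807 and 750 against 433 and 356. For these 3 genes the arrays within each pair lay closer together than the pairs did.

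Photosystem II and the ATP synthase were represented by 2 members each. The gene psbE, for a subunit of cytochrome b559 in photosystem II, was at 1325 and 1226 against 602 and 740 and was the brightest member. The core antenna gene psbB was at 594 and 543 against 411 and 319. The membrane subunits of the ATP synthase atpH, which forms the rotor ring, and atpI are neighbours in the plastid genome. They read 1115 and 850 against 542 and 522 for atpH, and 93.7 and 90.2 against 44.9 and 41.8 for atpI. The small ribosomal subunit gene rps14 was at 130 and 127 against 115 and 43.8, and knockout replicate 1 was far below the other 3 arrays. Without knockout replicate 1 its pair difference of 0.71 was 0.15.

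The plastid genes did not move as a block. Of the 69, 30 had the order of the members and 20 the opposite order, and the median pair difference was 0.05. The top 100 of the opposite order held 8 of them: rpl20, ndhF, rpl14, rps15, petL, rpl16, psbZ and psaJ. Neighbours in the plastid genome could lie in different lists. The gene rps15, of the small ribosomal subunit, lies beside ndhH but read 92.5 and 99.1 on the high pair and 162 and 237 on the low pair. Likewise rpoC1, which lies beside rpoB and encodes another subunit of the same polymerase, had a pair difference of -0.44. Between psaA and rps14 lies psaB, the partner of psaA in photosystem I, with a pair difference of 0.20. By kind of gene, 4 of the 6 atp genes had the order of the members and none the opposite. Of the 7 rpl genes, for the large ribosomal subunit, 2 had the order of the members and 5 the opposite, with a median of -0.44.

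**Figure D2:**
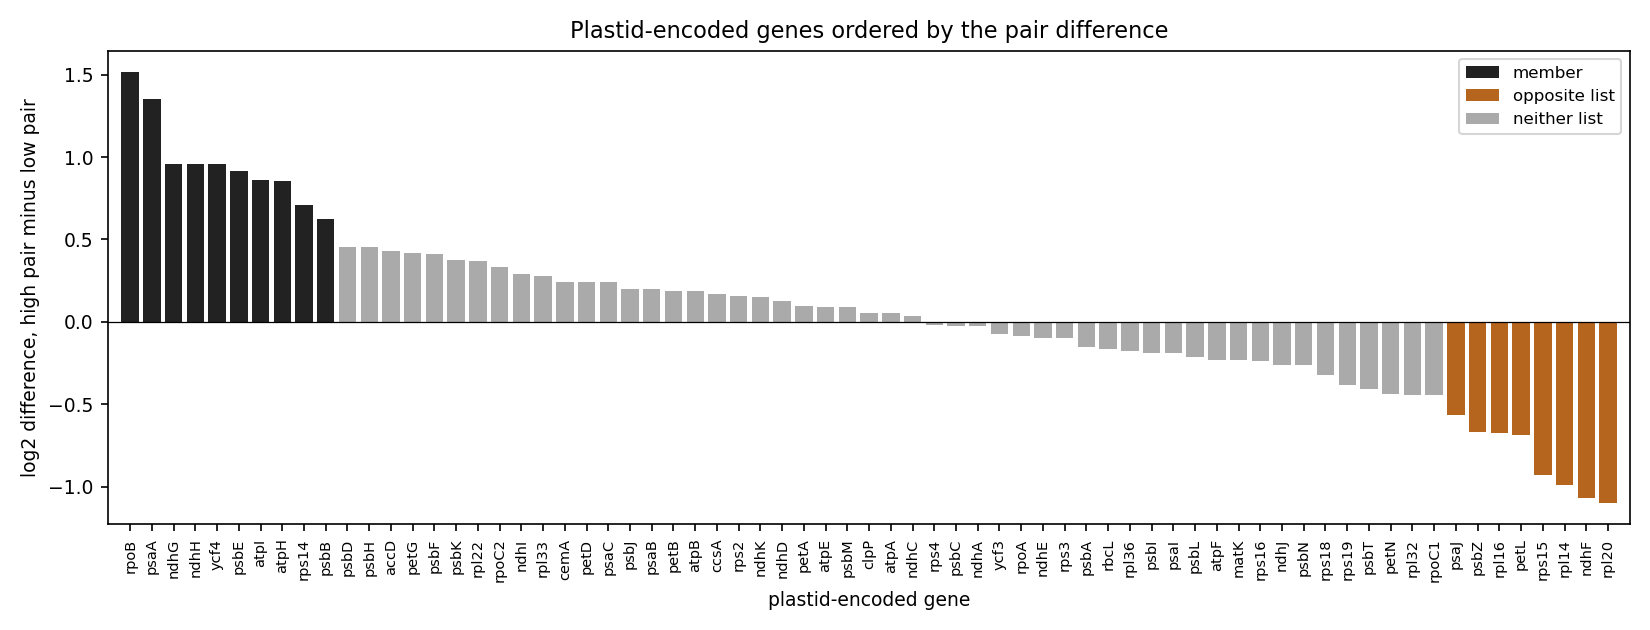
Pair difference (log2, high pair minus low pair) of each of the 69 eligible plastid-encoded genes, in order of size, with members black, genes on the opposite list brown and others grey. The genes run from 1.51 for rpoB to -1.10 for rpl20, with a step from psaA at 1.35 to ndhG at 0.96.

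The other 90 members lie on the nuclear chromosomes, 88 of them protein-coding genes and 2 pseudogenes (AT3G33066 and AT2G14130). The probe sets of both pseudogenes are marked as reading several transcripts, so their signals may not come from these loci alone. For 77 of the 100 members the annotation gives a locus number and no symbol, as it does for 7472 of the 8682 eligible probe sets. The functions of these members, apart from AT5G55580, are therefore not described. Among those of highest rank without a symbol, AT2G14255 was at 42.2 and 23.7 on the high pair and 9.0 and 6.6 on the low pair, where both low readings were below 20. AT1G13730 was at 53.6 and 40.8 against 7.3 and 27.6, and AT3G55020 at 87.6 and 60.0 against 27.2 and 31.4. These 3 nuclear genes had pair differences of 1.02, 0.98 and 0.97. Brighter genes of this kind were AT4G32020, at 866 and 622 against 476 and 389, and AT5G17380, at 522 and 473 against 323 and 282. The pairs were clearly apart on both of them. On AT2G25520, the brightest nuclear member, at 962 and 839 against 687 and 595, the gap between the pairs was small beside the level. Dimmer ones included AT3G47010, at 29.1 and 39.1 against 12.4 and 17.3, and AT5G27410, at 34.6 and 25.5 against 13.4 and 12.5, where both low readings were again below 20.

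Of the other nuclear members among the first 30, AT1G67580 was at 178 and 238 on the high pair and 123 and 123 on the low pair, where the low readings were all but equal. AT1G51745 was at 138 and 130 against 92.7 and 60.8. AT1G51350 was at 88.8 and 57.3 against 42.6 and 37.0. On these genes either array of the high pair could be the brighter. ATATH8 was at 68.0 and 59.8 against 30.9 and 30.5, and AT2G33490 at 63.0 and 51.9 against 33.4 and 26.3. AT4G35335 was at 69.4 and 56.0 against 21.6 and 38.9, AT3G07860 at 44.0 and 35.3 against 8.5 and 27.0, and AT5G26110 at 72.2 and 52.1 against 28.2 and 36.2. For these last 3 wild type replicate 2 was the lowest array, while AT5G35430, at 48.7 and 37.6 against 25.9 and 15.6, was lowest on knockout replicate 1.

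Those with a name serve unlike processes. GID1B, a receptor for the growth hormone gibberellin, was at 159 and 145 on the high pair and 79.4 and 93.2 on the low pair, a difference of 0.72. Its relative GID1A was at 230 and 248 against 174 and 240, which is not the members' order, since wild type replicate 1 lay below knockout replicate 1. FER (FERONIA), a receptor kinase of the cell surface that acts in cell growth, was at 484 and 421 against 310 and 278. SPI (SPIRRIG), which acts in cell shape, was at 109 and 79.5 against 62.5 and 59.9. GH9C2, a glycosyl hydrolase of the family that cuts cellulose-type chains, was at 254 and 182 against 164 and 135. On the 4 members among these 5 genes wild type replicate 1 was the brightest array, as it was for 76 of all 100 members.

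FZL, a dynamin-type protein that shapes plastid membranes, was at 93.8 and 62.4 against 36.6 and 52.0. AT5G55580, listed as mTERF9 of a family that acts on organelle transcripts, was at 58.0 and 37.3 against 15.1 and 33.0. For both of these genes the knockout arrays lay much closer together than the wild type arrays. TPS-CIN, which makes the monoterpene cineole, showed the same form, at 79.4 and 41.9 against 24.5 and 37.2. On AT1G57550 it was knockout replicate 2 that stood apart, with 26.0 and 57.2 against 24.7 and 15.7.

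Genes of chromosome, chromatin and protein turnover functions were present as well. TOPII, the DNA topoisomerase II, was at 40.4 and 39.0 against 27.8 and 20.6. ATZW10, named for the ZW10 protein of chromosome segregation and vesicle tethering, was at 45.7 and 39.9 against 27.7 and 24.6. RBL, a homologue of the RbBP5 subunit of histone methyltransferase complexes, was at 43.1 and 57.0 against 25 and 35.8. The pairs were apart on all 3, by 0.48, 0.48 and 0.51 on the log2 scale. SLOMO (SLOW MOTION), an F-box protein that affects the pace of organ formation, was at 203 and 180 against 141 and 118. AARE, an acylamino acid-releasing enzyme, was at 67.5 and 46.5 against 36.3 and 30.

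What the nuclear members shared, and the rule did not use, was gene length. The 88 protein-coding members spanned a median of 3721 bp in the TAIR10.1 annotation, introns included, with quartiles at 2622 and 4847 bp. The 8475 eligible nuclear protein-coding genes had a median of 2298 bp and quartiles at 1675 and 3216 bp. Of the 88 members, 71 (80.7%) were longer than that median. With the eligible genes cut into 10 bins of equal size by length, the longest bin, of 4398 bp and more, held 31 members and the shortest, up to 1158 bp, held 3. Among the longest were AT4G17140, at 23544 bp, which read 84.9 and 95.7 on the high pair and 37.3 and 50.4 on the low pair, and SPI, at 15114 bp. The 3 members in the shortest bin were AT1G57550 at 663 bp, AT2G07739 at 888 bp and AT3G48550 at 961 bp. AT3G48550 read 26.5 and 36.3 against 19.4 and 15.

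In the 100 genes of highest rank in the opposite order the lengths ran the other way. The 89 nuclear protein-coding genes among them had a median length of 1496 bp, and 24 of them (27.0%) exceeded the median of the eligible genes. The shortest bin held 31 of these and the longest bin 4. Both lists had similar brightness, with median mean signals of 68.9 for the members and 65.9 for the opposite list.

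Over all eligible nuclear protein-coding genes the pair difference was graded by length, within a range of medians much narrower than the members' own differences. The share of genes with the order of the members went up at every step, from 4.12% in the shortest bin to 35.7% in the longest. Over the same bins the share with the opposite order went down at every step, from 42.7% to 14.2%. The median pair difference went from -0.15 to 0.07 on the log2 scale. Across the 8475 genes, Spearman's rho of gene length with the pair difference was 0.316. Within the dimmer genes (mean signals up to 77.4) rho was 0.287, and within the brighter ones 0.365. These are correlations across genes measured on the same 4 arrays, which are not independent replicates.

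Each genotype showed the gradation by itself. Replicate 1 minus replicate 2 in the wild type had medians from -0.18 in the shortest bin to 0.05 in the longest (rho 0.249). Replicate 2 minus replicate 1 in the knockout had medians from -0.13 to 0.10 (rho 0.266). Knockout minus wild type, the contrast that the labels give, showed no such gradation, with medians of -0.05 in the shortest bin and -0.05 in the longest, and a rho of -0.027. Among the 69 plastid genes, rho of gene length (introns included) with the pair difference was 0.201. Members were found in all 10 bins.

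**Figure D3:**
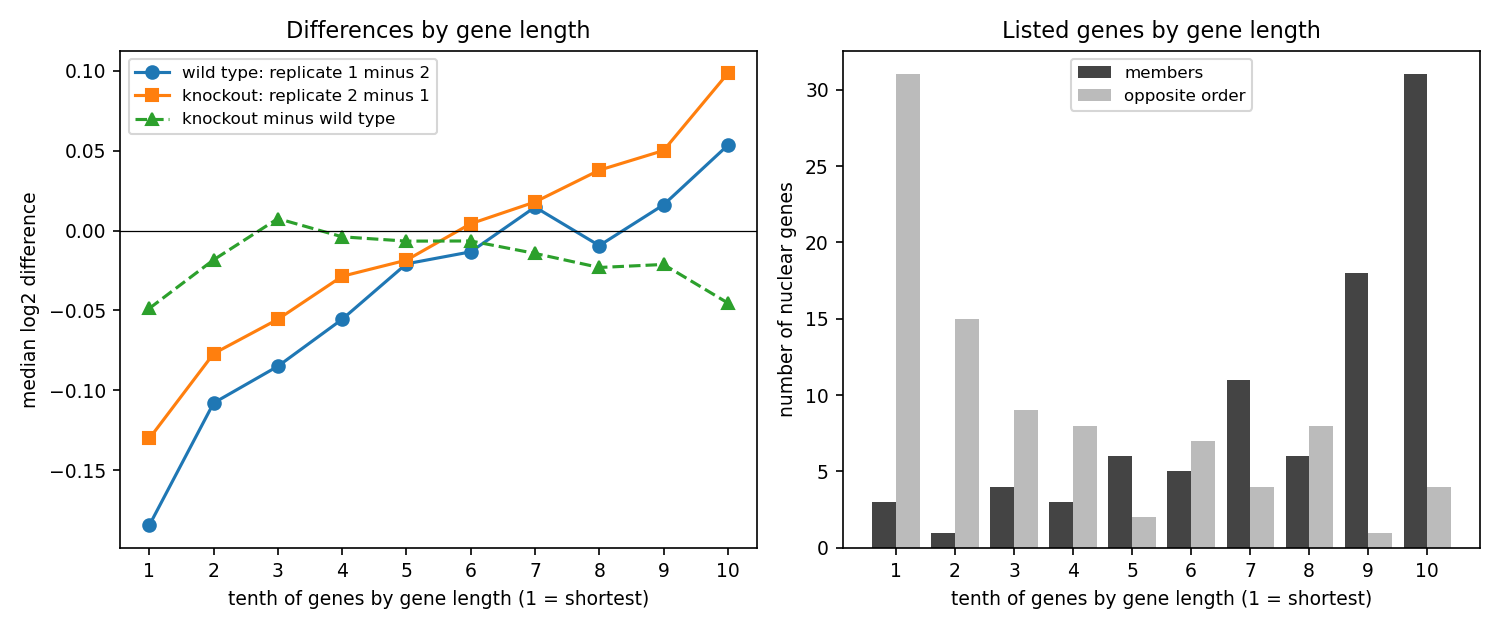
Left, median log2 difference in each of 10 length bins of the 8475 eligible nuclear protein-coding genes, for the replicate difference in each genotype and for knockout minus wild type. Right, number of members and of genes on the opposite list in each bin, 31 members in the longest and 31 genes of the opposite list in the shortest.

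Array controls moved with the same pairs in part. ATH1 arrays read the 3' and the 5' end of the actin, GAPDH and ubiquitin transcripts with separate probe sets, in a newer and an older version, and labelling starts at the 3' end. In the newer version the 3' to 5' signal ratio of actin was 1.83 and 1.90 on the high pair and 2.51 and 2.49 on the low pair. For GAPDH it was 1.13 and 1.13 against 1.34 and 1.28. For ubiquitin it was 1.66 and 1.67 against 1.90 and 1.57, where the pairs overlapped. The pairs thus stood apart on actin and GAPDH, with lower ratios on the high pair.

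The 5' signals alone were higher on the high pair for all 3 genes in the newer version, at 881 and 804 against 607 and 549 for actin, 1479 and 1319 against 1303 and 1160 for GAPDH, and 2162 and 1957 against 1535 and 1670 for ubiquitin. In the older version the GAPDH ratio was 1.13 and 1.16 against 1.64 and 1.64, while the actin ratio was 9.42 and 4.85 against 7.24 and 5.01 and the ubiquitin ratio 2.34 and 2.56 against 2.36 and 2.19. The older actin and ubiquitin ratios therefore did not follow the pairs. The older 5' signals were apart for GAPDH, at 689 and 610 against 591 and 572, and overlapped for actin, at 118 and 199 against 139 and 186, and for ubiquitin, at 1200 and 968 against 994 and 1019. The 3' signal of ubiquitin was also higher on the high pair, at 3595 and 3262 against 2917 and 2628 in the newer version and at 2804 and 2475 against 2347 and 2228 in the older one. That of older GAPDH went the other way, at 779 and 710 on the high pair against 966 and 939 on the low pair. The 3' signals of newer GAPDH, and of actin in either version, did not separate the pairs. The 25S ribosomal RNA control read 556 and 992 on the high pair and 841 and 2196 on the low pair and overlapped between them. The part of RNA integrity or labelling in the members' pattern was not tested.

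**Figure D4:**
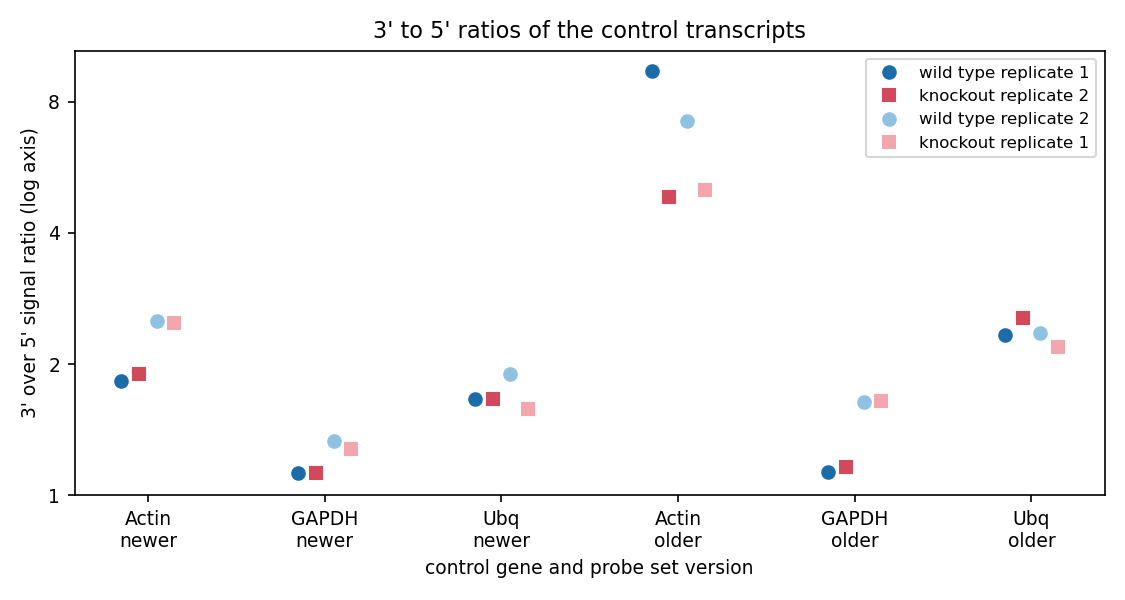
Ratio of 3' to 5' signal, on a log axis, of the actin, GAPDH and ubiquitin (Ubq) controls in the newer and the older probe set version on each array, with circles for wild type and squares for knockout. Newer actin and both GAPDH controls show both dark symbols (high pair) below both pale ones (low pair), and the other 3 do not.

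Lists of marker genes for growth, light, time of day, carbon state, hormones, stress and tissues were set beside the members. The lists held 961 genes that could be matched, of which 103 were eligible by name. Only 13513 of the 22746 probe sets named exactly 1 gene, and the other matched genes had no eligible probe set. A state marked mainly by those other genes would be missed here. Of these 103, 1 was a member, GID1B, so 1 of 100 members was on any list, as were 1.19% of the eligible probe sets. The order of the members was met by 12 of the 103 (11.7%) and the opposite order by 17 (16.5%), against 18.0% and 24.8% of all eligible probe sets. The median pair difference of the 103 was -0.03, as it was over all eligible probe sets (-0.03). Knockout against wild type, 2 of the 103 were higher and 1 was lower past the threshold, none of them a member.

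For time of day, 4 genes of the evening clock list and none of the morning clock list were eligible. The hours at which these 4 peak were not checked. GI (GIGANTEA), a component of the clock, was at 159 and 130 on the high pair and 133 and 122 on the low pair, and TIC at 384 and 350 against 302 and 317. CCL and COR27 had pair differences of -0.11 and -0.16. TIC alone of the 4 had the order of the members.

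For light and photosynthesis, 6 nuclear photosynthesis genes were eligible, 1 with the order of the members and 1 with the opposite. RCA, the activase of the carbon-fixing enzyme Rubisco, was at 2672 and 2685 against 2292 and 2430. The photosystem I subunit PSAE-1 was at 1119 and 1217 against 1260 and 1414. With RCA and PSAE-1 in opposite orders, the photosynthesis list did not run one way. On the light signalling list, HYH, a light signalling factor, was at 24.1 and 23.2 against 36.8 and 31.5, the opposite order. Of the 3 eligible genes on the chlorophyll list, PORB, which makes chlorophyll's precursor in the light, was at 626 and 739 against 484 and 580. PORB had the order of the members with a difference of 0.35, while CHLM and GSA1 had neither order, at 0.13 and 0.09.

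For carbon state, 7 genes of the starvation list were eligible, 1 with each order, and their median pair difference was 0.05. BGLU46 stood at -0.31 and EXO at 0.13. For growth, 9 genes of the cell wall growth list were eligible, with a median of 0.09, and the expansins EXPA8, EXPA15 and EXPA4, which loosen the wall, had pair differences of 0.26, 0.28 and 0.24. Of these 3, EXPA8 alone had the order of the members. XTH16, a xyloglucan-modifying enzyme, stood at -0.34.

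Tissue markers gave no common direction. PYK10, a beta-glucosidase abundant in roots, was at 2967 and 2859 against 2599 and 2545, the members' order. EXPA7, an expansin of root hair cells, was at 28.7 and 55.9 against 50.3 and 55.9, which is neither order. EXPA18, also of root hairs, stood at 0.04. Of the seed and embryo list, AIM1, which acts in fatty acid breakdown, had a difference of 0.26 and ICL, the isocitrate lyase, one of -0.14. Of the dividing cell genes, BUB3.1 stood at 0.27, AUR1 at -0.11 and PRL, a subunit of the MCM complex of DNA replication, at -0.22.

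The stress lists were short. The order of the members and the opposite order were met by 0 and 2 of 11 eligible genes on the touch and wound list, 0 and 2 of 5 on the heat shock list and 1 and 2 of 5 on the oxidative list. They were met by 0 and 1 of 4 on the abscisic acid and cold list, 0 and 0 of 4 on the jasmonate list and 0 and 0 of 2 on the salicylic acid list. Against backgrounds of 18.0% and 24.8%, nothing is read from counts of this size. CML23, a calmodulin-like protein on the touch list, was at 126 and 47.6 on the high pair and 177 and 78.6 on the low pair, which is neither order. NDB2, a mitochondrial NADH dehydrogenase on the oxidative list, was at 195 and 164 against 140 and 129. On the auxin list of 5, WES1, which couples auxin to amino acids, stood at 0.11 and LBD16, a factor of lateral root formation, at -0.12.

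Knockout against wild type, none of the 100 members passed an adjusted p of 0.05 in limma, where 0.320% of the 15924 tested probe sets did, 51 in all. At an unadjusted limma p under 0.05 there were 0 members and 834 probe sets. The rule holds this difference small in each member, since neither genotype can lie wholly above the other, and it widens the spread within each genotype, so nothing is read from this count. The median knockout minus wild type difference of the members was -0.09 on the log2 scale, against -0.01 over all tested probe sets. It lay above 0 in 28 of 100 members and in 3895 of the 8682 eligible probe sets. The median of the members rose to 0.25 without wild type replicate 1 and to 0.17 without knockout replicate 1. It fell to -0.44 without wild type replicate 2 and to -0.38 without knockout replicate 2. The rule fixes the direction of these shifts, since it puts the high pair above the low pair in every member, so nothing is read from them.

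Position gave little further order. The nuclear protein-coding members fell on the chromosomes 1 to 5 as 21, 19, 18, 12 and 18, or 21.6% on chromosome 2 against 14.8% of the eligible genes. Of the nuclear members, AT5G09450 and AT5G09460 on chromosome 5 were the only ones next to each other in the annotation, at 106 and 96.7 against 57.8 and 57.2, and at 168 and 136 against 107 and 94.1. For 31 members another annotated gene overlaps the span, counted on either strand and without regard to where the probes lie. The share over all eligible genes was not counted, so nothing is read from this number. Whether the signal of these members includes a second transcript was not tested. Probe sets marked as reading several transcripts made up 3 of 100 members (AT3G33066, AT2G14130 and AT2G07739) and 0.783% of the eligible ones. A further 1663 of 7153 probe sets without a single gene name met the same order, and 90 of them had a larger pair difference than the last member. They are not members and not described here.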

How the data were processed

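The deposited table holds 1 linear intensity per probe set and array, which the authors made with MAS5, as the submitters' processing notes list it. Its version and settings were not given in the sources used here. Both the members and the gene lists were chosen with earlier results of these data known. Control probe sets were set aside. Genes were named from the platform annotation, with symbols updated through gene numbers for 13436 of 13513 probe sets with 1 symbol, and gene spans came from RefSeq (TAIR10.1). Values were used as log2(signal + 16), so differences of dim genes are understated. The knockout was compared with wild type in limma 3.58.1 (R 4.3.3, eBayes with an intensity trend, Benjamini-Hochberg over 15924 probe sets above the 30th percentile of mean signal, which was 19.5). The fit was also run on simulated data with noise independent between arrays. Those data lack the pattern of the pairs, so nothing is read from that run. The p-values of the comparison cover only the spread among these arrays, which may be technical, and 2 arrays per group limit precision. The genes named were the 30 of highest rank, listed genes and those at the edge of the list; the others were chosen after their values were seen. A planned sorting by words in gene names gave no class with 3 members and was not used. The planned look at promoter and protein sequences was not made.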

Additional observations from a re-analysis of the deposited data

Results flagged for a closer look

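The controls were left out of the genotype test. Those with a mean signal of 19.5 or more were searched for a single order, both knockout arrays above both wild type arrays. It was met by 2 of them. The opposite order was not searched and the share over all probe sets was not counted, so nothing is read from this number. The 25S ribosomal RNA control read 2.28-fold higher on average, at 2196 and 992 on knockout replicates 1 and 2 and 556 and 841 on wild type replicates 1 and 2. The older actin 5' control read 1.5-fold higher, at 186 and 199 against 118 and 139. Neither separates the high pair from the low pair.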

How the results depend on the processing

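The pair difference of the members had a median of 0.71 with a pseudocount of 1 and 0.36 with 64, and lay between 0.52 and 0.66 with 1 array left out. Of the 100 members, 64 stayed in the list with a pseudocount of 64 and 63 with a minimum mean signal of 50, while 71 to 99 stayed under the other settings. The median length of the nuclear members, checked after the data were seen, was 3300 to 3672 bp in the lists so remade. For the members, the order that chose them fixes the sign of the difference with 1 array left out or another pseudocount, and its size fell to 0.15 for rps14 without knockout replicate 1. Calls of knockout against wild type numbered 0 with no filter (1081 at an unadjusted limma p under 0.05) and 20 to 87 with 1 array left out (87 without wild type replicate 1, 61 without wild type replicate 2, 23 without knockout replicate 1 and 20 without knockout replicate 2), where the lone array is assumed to vary like the other group. Members called then numbered 0 to 3. With the replicate number as a block 89 probe sets were called. The replicate differences of the groups correlated at -0.301 across probe sets, and a crossed pairing, added after the data were seen, gave 195 calls. The crossed pairing blocks on the high pair and the low pair, a split taken from these same data, so nothing is read from its count. No member was called with either block. The planned sequence comparison was not run. Signals near 20 limit what can be said of the dimmest members.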
